A study of Homo sapiens
Mus musculus with 16 samples.

Results

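The interaction of nab-paclitaxel and phenelzine in the host was read from the mouse genes of MDA-MB-231 tumours, a human triple-negative breast cancer line grown in the mammary fat pad of Balb/c nude mice. It is the response to the combination minus the responses to the single drugs: combination minus nab-paclitaxel minus phenelzine plus vehicle, on the log2 scale. All 16 libraries of the series enter it, 4 per group and 1 per tumour. The combination mice received nab-paclitaxel at 30 mg/kg on days 15, 22 and 29 and phenelzine at 40 mg/kg daily from day 15. Nab-paclitaxel and phenelzine mice received 1 of these at the same dose, and vehicle mice neither; all injections were intraperitoneal. Every mouse carried tumour cells of the same line, injected in a volume of 50 µl, and tumours were taken on day 50. Of 48795 mouse genes listed, 15074 had enough counts to be tested.

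Nab-paclitaxel is an albumin-bound taxane that stabilises microtubules and stops dividing cells. Phenelzine inhibits monoamine oxidases, and also the histone demethylase LSD1, which uses the same kind of flavin chemistry. In a xenograft the human cells are the tumour and the mouse cells are the host tissue in it, such as fibroblasts, vessels and myeloid cells; nude mice lack a thymus and so most T cells. An interaction above 0 means that a host gene stood higher with both drugs than the 2 single-drug effects add up to, and one below 0 that it stood lower. A gene can differ from all other groups with the combination and have no interaction, if both drugs move it the same way. A gene can also have an interaction and stand at its vehicle level with the combination, if each single drug moves it and both together do not.

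Host genes are given by their Ensembl IDs, since 0 of them could be paired with a gene symbol. Pathways and cell types, including the markers of fibroblasts, vessels or macrophages that would check the host tissue, are therefore not described. The mouse counts of a library totalled 6603600 to 27389920 with the combination, 8529451 to 22857902 under nab-paclitaxel, 3457146 to 6180708 under phenelzine and 5210909 to 14408029 under vehicle. The mouse share of all counts averaged 48.3% ± 22.1 in combination tumours, 36.5% ± 18.1 in nab-paclitaxel tumours, 12.6% ± 3.54 in phenelzine tumours and 21.1% ± 11.5 in vehicle tumours (SD, n = 4 each). Its own interaction was 20.2 points, with exact permutation p = 0.200, two-sided, from all 4900 ways to reassign phenelzine within each nab-paclitaxel state. The reassignment assumes no phenelzine effect in either state, which is more than no interaction, so it is no exact test of the interaction alone. In such bulk tissue, fewer cells of a type and less RNA per cell cannot be told apart. How reads were divided between the species is not given in the sources used here. Levels are in CPM, a gene's share of the mouse counts of its library after TMM scaling, and tests are edgeR's quasi-likelihood F test with Benjamini-Hochberg adjustment over all genes tested.

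No host gene passed the threshold of 0.05 for the interaction: 0 of 15074 (0%), with a lowest adjusted p of 0.0775 in edgeR. At an unadjusted p under 0.05 stood 1228 genes (8.15%), 791 positive (5.25%) and 437 negative (2.9%). In the human genes of the same tumours 544 of 18131 (3.0%) did so, 283 positive and 261 negative. If no gene had an interaction, a share of about 0.05 would be expected under that p, divided over both signs. DESeq2 called 18 host genes, 15 positive and 3 negative, of which 17 were among the 1228. Limma voom with quality weights called 1, a negative interaction.

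The 4 IDs printed here are the 2 positive and the 2 negative interactions of lowest p among genes averaging at least 5 CPM in some group. They were chosen by that p, so their values are a description. They have 2 shapes: in 1 pair the combination stands apart from the other groups, and in the other pair the single drugs do.

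ENSMUSG00000020522 had the lowest interaction p of all host genes, and stood lower with both drugs than in each other group. Its CPM was 20.8, 18.6, 23.2 and 33.7 in combination mice 1 to 4, against 53.6, 63.2, 62.4 and 67.4 in nab-paclitaxel mice, 76.4, 61.4, 61.9 and 67.1 in phenelzine mice and 62.6, 58.8, 55.1 and 54.5 in vehicle mice. The 4 combination values lay below all 12 others, and the other 3 groups overlapped each other. Nab-paclitaxel alone differed from vehicle by 0.09 (SE 0.158) and phenelzine alone by 0.21 (SE 0.159) on the log2 scale, adjusted p = 0.848 and 0.873. Against nab-paclitaxel the combination fell by 1.36 (SE 0.161, adjusted p = 0.00755), and against phenelzine it fell by 1.48 (SE 0.162, adjusted p = 0.00307). The interaction was -1.57 (SE 0.226, adjusted p = 0.0775), short of the threshold. It was between -1.79 and -1.48 with any 1 library left out. With the mouse share of each library as a covariate it was -1.41 (adjusted p = 0.123). It passed without combination 4 (adjusted p = 0.00101), without phenelzine 2 (0.0377), with upper-quartile factors (0.0367), in voom (0.00285) and in DESeq2 (1.79e-08). It did not pass in edgeR with the other 14 libraries left out 1 at a time (0.0797 to 0.277). Nor did it with DESeq2 size factors (0.0610), at least 1 CPM in 4 libraries (0.0696), no low-count filter (0.10) or a replicate block (0.255). Without combination 1 and 3 and nab-paclitaxel 1 and 4 it was -1.45 (adjusted p = 0.811).

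ENSMUSG00000001441 stood higher with both drugs. Its CPM was 88.6, 74.4, 66.6 and 63.3 with the combination, against 36.4, 41.2, 43.9 and 41.4 in nab-paclitaxel mice, 44.9, 57.3, 47.0 and 46.0 in phenelzine mice and 56.6, 53.2, 57.1 and 39.9 in vehicle mice. All 4 combination values were above the 12 others; the vehicle values overlapped those of each single drug, and the nab-paclitaxel values lay below all phenelzine values. The interaction was 0.93 (SE 0.201, unadjusted p = 0.000343, edgeR adjusted p = 0.597), and the combination was 0.50 above vehicle on the log2 scale (SE 0.142, adjusted p = 0.221).

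ENSMUSG00000022015 had the other shape. Its CPM was 5.60, 5.64, 10.4 and 8.18 with the combination, against 5.06, 4.70, 3.65 and 4.39 in nab-paclitaxel mice, 2.91, 3.34, 3.21 and 3.40 in phenelzine mice and 8.98, 12.8, 5.97 and 6.18 in vehicle mice. Both single-drug groups lay below every combination and vehicle value, and combination and vehicle overlapped. The log2 difference from vehicle was -0.20 for the combination (SE 0.277), -0.94 for nab-paclitaxel (SE 0.281) and -1.40 for phenelzine (SE 0.294). The interaction was 2.14 (SE 0.405, unadjusted p = 9.73e-05, edgeR adjusted p = 0.597).

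ENSMUSG00000029544 was its mirror image. Its CPM was 2.19, 1.77, 5.47 and 4.17 with the combination, against 6.43, 7.01, 7.53 and 9.14 in nab-paclitaxel mice, 14.8, 7.0, 6.43 and 6.26 in phenelzine mice and 3.55, 2.23, 3.06 and 4.39 in vehicle mice. Every single-drug value was above every combination and vehicle value. The interaction was -2.55 (SE 0.55, unadjusted p = 0.000345, edgeR adjusted p = 0.597), and combination and vehicle differed by 0.05 (SE 0.390).

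**Figure D1:**
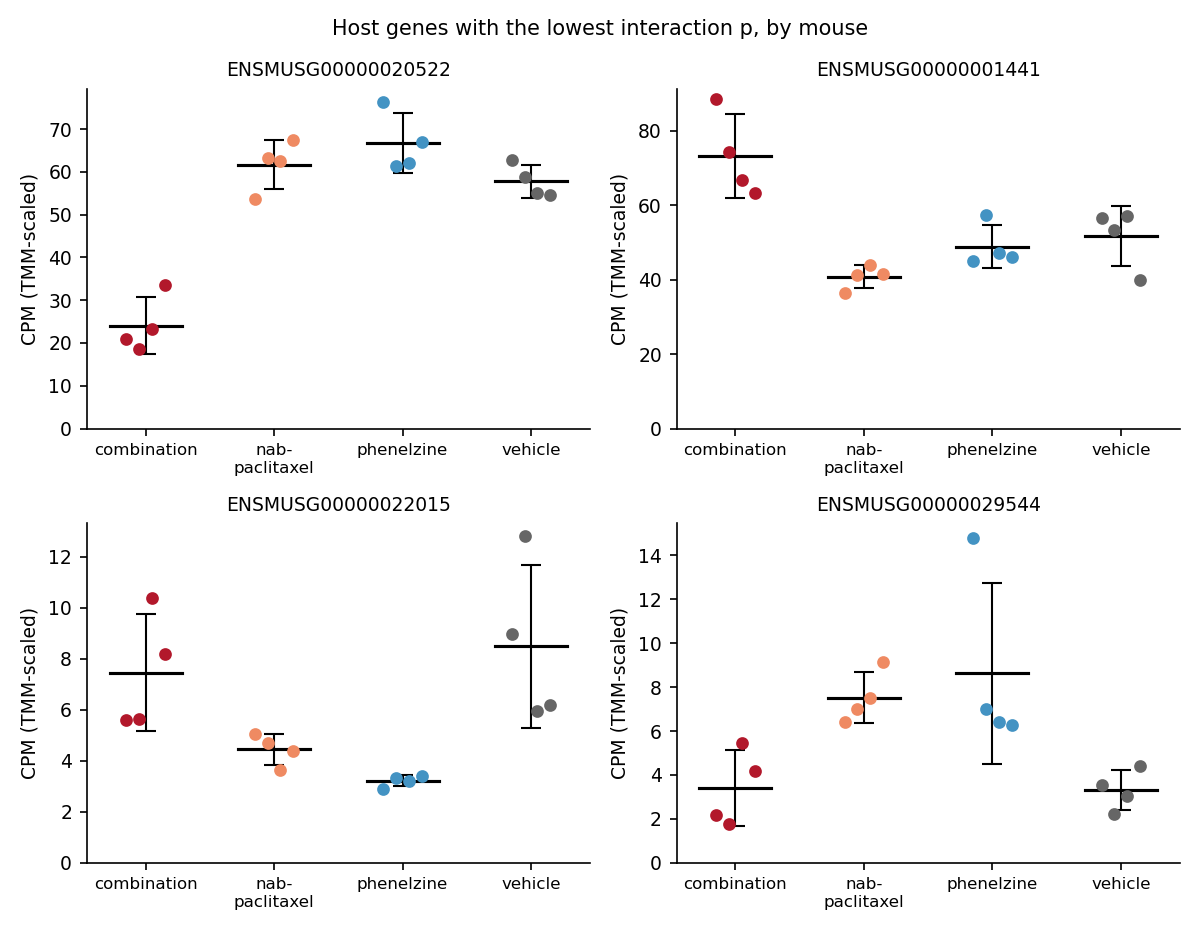
CPM (TMM-scaled, linear axes from 0) of the 4 host genes by group; each point is 1 mouse, the long bar is the mean and the error bar the SD (n = 4). In the upper panels the combination values stand below or above all 12 others, and in the lower panels both single-drug groups stand apart from combination and vehicle.

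Further genes by the same rule shared the signs of the single-drug means and differed in the level with the combination. Among the first 12 positive interactions, from 0.80 to 5.21, both single-drug means were below vehicle in all 12, the combination mean was the highest of the 4 groups in 7, and all 4 combination values were above the 12 others in 1. Among the first 12 negative ones, from -12.04 to -0.57, both single-drug means were above vehicle in all 12, the combination mean was the lowest in 6, and its values were below all others in 1. The -12.04 belongs to a gene with 1814 CPM in nab-paclitaxel 4 and 3935 CPM in phenelzine 2, and at most 29.1 CPM in every other library.

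The same signs were frequent among the 1228 genes. Of the 791 with a positive interaction, both single-drug groups were below vehicle in 729 (92.2%), against 36.9% of all genes tested. Of the 437 with a negative one, both were above vehicle in 390 (89.2%), against 27.1% of all. Since these genes were chosen by the interaction, such signs are partly fixed by the choice, and the shares are a description. The median log2 difference from vehicle in the positive set was 0.02 for the combination, -0.50 for nab-paclitaxel and -0.67 for phenelzine. In the negative set it was -0.07 for the combination, 0.41 for nab-paclitaxel and 0.46 for phenelzine.

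Only the combination was 2-fold away from vehicle in 15 positive genes (1.90%) and 12 negative ones (2.75%) of the 1228, and in 683 of all 15074 genes tested (4.53%). Both single drugs 2-fold away in the same direction, with the combination less than 2-fold away, was seen in 75 positive genes (9.48%) and 18 negative ones (4.12%), against 0.902% of all. No group was 2-fold from vehicle in 423 positive genes (53.5%) and 326 negative ones (74.6%), against 82.1% of all. At 1.5-fold the combination-only shape held for 23 positive genes (2.91%) and 35 negative ones (8.01%), against 6.87% of all, so that for negative genes it was below the share of all genes at 2-fold and above it at 1.5-fold. The shape of both single drugs held at 1.5-fold for 116 positive genes (14.7%) and 55 negative ones (12.6%), against 2.14% of all. The shapes use the same group means as the interaction that chose these genes. Their shares are therefore partly fixed by the choice and are a description.

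Among these 1228 genes the positive interactions were larger than the negative ones. The positive median was 1.40 on the log2 scale, and 307 exceeded 4-fold. The negative median was -1.10, and 46 exceeded 4-fold. A gene with a larger SE needs a larger interaction to reach the same p, so these sizes are partly fixed by the choice. A count of 0 in at least 1 library was found in 15.7% of positive genes, 3.43% of negative ones and 8.86% of all. Of the positive genes 68.9% and of the negative ones 73.9% averaged at least 10 CPM, against 70.2% of all. Single libraries did stand out in the positive set. In 91 of its genes (11.5%) 1 library of a group was at least 10 times the next, against 4 negative genes (0.915%) and 1.88% of all, and in 61 of them that library was vehicle 2. Vehicle 2 was the highest vehicle library in 53.9% of positive genes, 8.01% of negative ones and 33.5% of all. Nab-paclitaxel 1 was the highest nab-paclitaxel library in 56.6% of positive genes, against 27.2% of all, and phenelzine 3 the highest phenelzine library in 41.6%, against 26.3% of all. Combination 1 or 2 was the highest combination library in 43.1% and 45.3% of positive genes, against 22.7% and 26.8% of all, and combination 3 in 4.68%, against 22.8% of all. Mouse share did not order these libraries alike in every group: vehicle 2 (37.8%), nab-paclitaxel 1 (59.7%) and combination 1 (71.2%) had the highest of their groups, phenelzine 3 (9.25%) the lowest, and combination 3 (55.9%) a higher one than combination 2 (47.4%). With the mouse share of each library as a covariate 636 genes (4.22%) stood at an unadjusted edgeR p under 0.05, against 1228 (8.15%) without it. Of the 1228, 480 were among the 636.

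The effect of phenelzine on host genes was negatively correlated between the nab-paclitaxel states, and that of nab-paclitaxel positively between the phenelzine states. For phenelzine on top of nab-paclitaxel and alone, measured in separate libraries, Pearson's r of the log2 values was -0.24 and Spearman's rho -0.23 over the 15074 genes, and 42.0% of them had the same sign. For nab-paclitaxel, on top of phenelzine and alone, Pearson's r was 0.23 and Spearman's rho 0.27, and 58.6% had the same sign. These are correlations across genes, which are not independent replicates, and each pair shares only the scaling and the genes. The median absolute log2 value of phenelzine was 0.20 on top of nab-paclitaxel and 0.21 alone, and that of nab-paclitaxel 0.30 on top of phenelzine and 0.25 alone. With any 1 library left out the phenelzine r was between -0.31 and -0.13, and the nab-paclitaxel r between 0.04 (without nab-paclitaxel 1) and 0.43 (without vehicle 2). Without combination 1 and 3 and nab-paclitaxel 1 and 4, the libraries with the highest mouse shares of their groups (71.2%, 55.9%, 59.7% and 41.9%), they were -0.24 and -0.02. With the mouse share as a covariate the phenelzine r was -0.10 and the nab-paclitaxel r 0.26, and with no low-count filter they were -0.09 and 0.07.

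**Figure D2:**
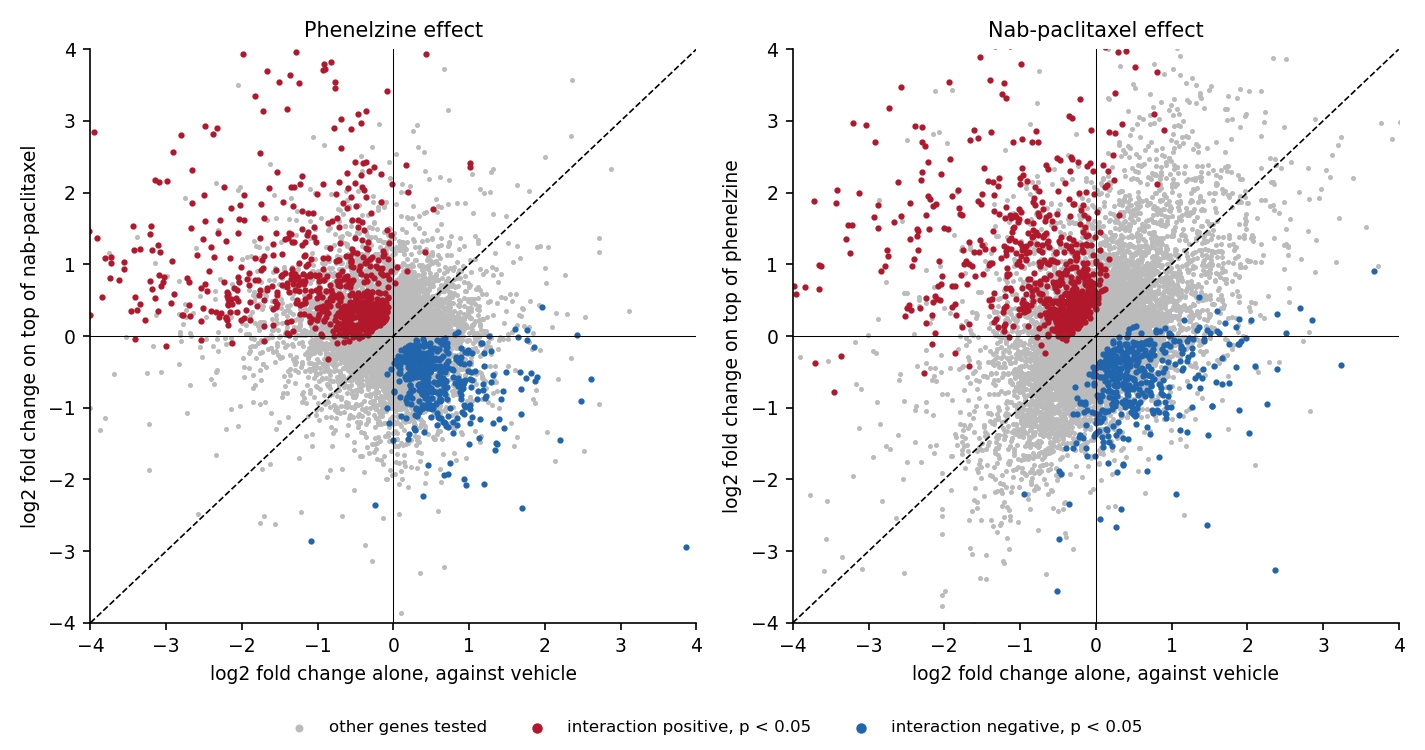
Log2 fold change of each host gene on top of the other drug (vertical) and alone against vehicle (horizontal), for phenelzine (left) and nab-paclitaxel (right); each point is 1 of 15074 genes, red and blue mark positive and negative interactions at unadjusted p under 0.05, and 85 and 120 genes lie beyond the axis limits of 4. On the dashed line the effect is the same in both states; the coloured genes lie off it by their selection, and over all genes r is -0.24 on the left and 0.23 on the right.

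The number of genes at unadjusted p under 0.05 moved with single libraries. It was 777 (5.15% of genes tested) without combination 1 and 785 (5.22%) without combination 2, against 8.15% with all libraries. Without combination 4 it was 1845 (11.8%), and without vehicle 4 it was 2373 (15.2%). A share of about 0.05 would be expected if no gene had an interaction. The positive share was 49.1% without combination 4 and 51.8% without vehicle 4, against 64.4% with all libraries. With 1 library left out, 687 (without vehicle 2) to 1116 (without vehicle 4) of the 1228 genes still stood under 0.05.

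**Figure D3:**
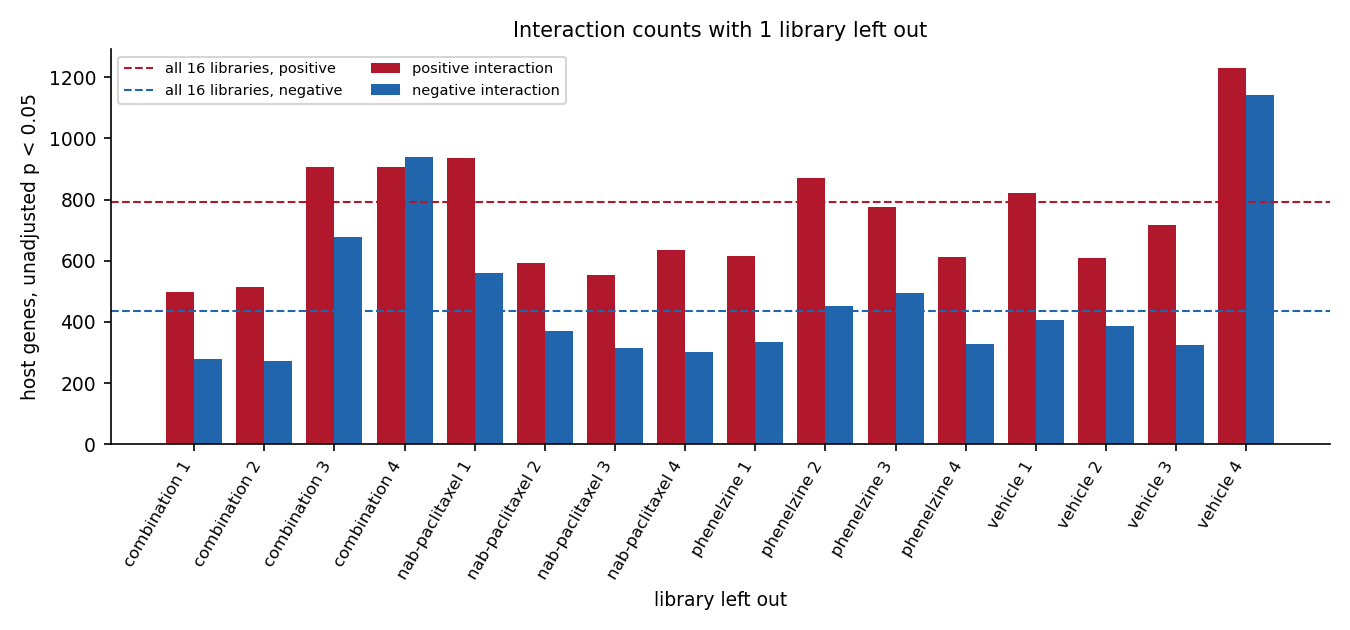
Host genes with a positive (red) or negative (blue) interaction at unadjusted p under 0.05, in fits that leave out the library named below each pair of bars; dashed lines give the 791 and 437 of all 16 libraries. Counts range from 497 to 1230 positive and from 271 to 1143 negative.

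Genes that change with both drugs were then sought without the interaction, as those whose 4 combination libraries lay outside the range of the 12 others. Between the combination and a single other group, all 4 libraries of one lay above all 4 of the other in 584 genes (3.87%) for nab-paclitaxel, 1693 (11.2%) for phenelzine and 794 (5.27%) for vehicle; for the single drugs against vehicle it was 846 (5.61%) for nab-paclitaxel and 305 (2.02%) for phenelzine. Against all 12 other libraries together, 17 genes stood above (0.113%) and 12 below (0.0796%), 29 in all. The same count was 21 for nab-paclitaxel, 39 for phenelzine and 19 for vehicle, so the combination group stood apart in no more genes than phenelzine did. Of the 17 above, 5 had an unadjusted interaction p under 0.05 in edgeR, and of the 12 below also 5, against 8.15% of all genes tested. The combination values that set these genes apart also enter the interaction, so these counts are partly fixed by the choice. Interactions ran from 0.11 to 7.38 for the genes above and from -1.57 to 0.05 for those below. A difference of at least 2-fold against each other group, with 5 CPM or more in some group, was left in 3 genes above and in ENSMUSG00000020522 below. The first of the 3 is gene H below. The second had 8.86, 33.4, 18.4 and 9.73 CPM with the combination, and 3.13 to 7.64 in nab-paclitaxel mice, 1.79 to 5.73 in phenelzine mice and 0 to 4.47 in vehicle mice; its interaction was 1.29 (SE 0.949, unadjusted p = 0.193, edgeR adjusted p = 0.699). The third had 15.5, 11.1, 9.24 and 8.18 CPM with the combination, 4.00 to 7.24 in nab-paclitaxel mice, 1.06 to 4.38 in phenelzine mice and 1.91 to 5.36 in vehicle mice, and an interaction of 1.01 (SE 0.585, unadjusted p = 0.106, edgeR adjusted p = 0.647).

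Comparisons of the combination with each other group, and with the mean of the 3 others, called 9 host genes between them. Against nab-paclitaxel 1 rose and 2 fell (0.0199% of genes tested), against phenelzine 1 fell (0.00663%), and against vehicle 3 rose and 2 fell (0.0332%). Against the mean of the 3 other groups 6 rose and 1 fell (0.0464%). Neither single drug called a host gene against vehicle in edgeR (0%). At an unadjusted edgeR p under 0.05 stood 1799 genes (11.9%) for nab-paclitaxel and 921 (6.11%) for phenelzine. DESeq2 called 221 and 11 of the same 15074 genes, and voom 1 and 0. These comparisons share libraries with each other. A call made with the combination and not with a single drug is no test of the difference between them. That test is the interaction, and none of the 9 passed it after adjustment in edgeR with TMM factors and all 16 libraries. ENSMUSG00000020522 passed in some of the settings named beside its values and not in others. The interaction stood at an unadjusted p under 0.05 in 5 of the 9, against 8.15% of all genes tested. The calls and the interaction share the combination libraries, so this count is partly fixed by the choice. Besides ENSMUSG00000020522 the 9 are called genes A to H here.

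Genes A, B and C rose with the combination, and their means with phenelzine alone lay between those of combination and vehicle (phenelzine against vehicle: 1.01, 1.31 and 2.00 on the log2 scale, edgeR adjusted p = 0.773, 0.674 and 0.674). Gene A had 109, 119, 72.9 and 50.0 CPM with the combination, against 11.96, 18.7, 23.4 and 14.7 in nab-paclitaxel mice, 53.1, 41.8, 37.1 and 31.5 in phenelzine mice and 21.3, 27.5, 14.9 and 17.4 in vehicle mice. All phenelzine values were above all vehicle values, and combination 4 lay within the phenelzine range. The combination rose by 2.36 against nab-paclitaxel (SE 0.298, adjusted p = 0.00857), and the interaction was 1.35 (SE 0.408, unadjusted p = 0.00479, edgeR adjusted p = 0.597). The sum of the single-drug effects on gene A was 0.76, against an observed 2.11.

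Gene B had 53.7, 60.6, 56.5 and 34.3 CPM with the combination, against 17.6, 11.4, 13.8 and 19.97 in nab-paclitaxel mice, 46.8, 33.3, 16.9 and 32.2 in phenelzine mice and 12.3, 15.95, 11.3 and 12.4 in vehicle mice. It rose by 1.98 against vehicle (SE 0.278, adjusted p = 0.0204), where the single-drug effects sum to 1.58. Gene C had 117, 71.8, 198 and 70.9 CPM with the combination, against 23.8, 8.81, 12.9 and 35.1 in nab-paclitaxel mice, 72.2, 54.9, 38.3 and 57.2 in phenelzine mice and 18.0, 15.6, 9.34 and 12.8 in vehicle mice. It rose by 3.04 against vehicle (SE 0.440, adjusted p = 0.0211), where the sum is 2.54. For both, combination and phenelzine values overlap, and the interval of the interaction included 0: 0.40 for gene B (95% interval -0.43 to 1.23) and 0.50 for gene C (-0.77 to 1.76).

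Gene D, which fell, followed the sum most closely. It had 2.34, 2.61, 2.61 and 4.48 CPM with the combination, against 3.86, 4.60, 3.53 and 5.77 in nab-paclitaxel mice, 11.1, 8.43, 5.55 and 8.76 in phenelzine mice and 12.1, 17.5, 7.81 and 9.98 in vehicle mice. It fell by 2.00 against vehicle (SE 0.313, adjusted p = 0.0397), the sum was -1.91, and the interaction was -0.09 (95% interval -1.02 to 0.83). Against nab-paclitaxel gene E fell by 1.53 (SE 0.222, adjusted p = 0.0285). It had 18.5, 19.9, 12.9 and 19.9 CPM with the combination, against 53.7, 55.8, 43.6 and 52.9 in nab-paclitaxel mice, 11.9, 18.6, 24.3 and 22.5 in phenelzine mice and 34.2, 36.7, 36.3 and 56.3 in vehicle mice. All 8 values with phenelzine, alone or combined, lay below all 8 without it; the interaction was -0.46 (95% interval -1.13 to 0.22).

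Genes F, G and H rose against the mean of the 3 other groups and passed no comparison with a single group in edgeR. In DESeq2, genes F and G passed all 3 (adjusted p up to 0.0313 and 0.0299) and gene H had no adjusted p; voom called gene G against nab-paclitaxel (0.0326). Gene F had 214, 126, 60.5 and 19.0 CPM with the combination, against 3.41 to 26.4 in nab-paclitaxel mice, 1.85 to 12.9 in phenelzine mice and 1.60 to 17.9 in vehicle mice. Combination 4 lay within the nab-paclitaxel range. The single-drug effects sum to -0.07 against an observed 3.50, and the interaction was 3.56 (SE 1.17, unadjusted p = 0.00812, edgeR adjusted p = 0.597). Gene G had 16.7, 19.7, 26.1 and 6.48 CPM with the combination, against 2.53 to 3.65 in nab-paclitaxel mice, 3.21 to 10.3 in phenelzine mice and 2.23 to 4.80 in vehicle mice, and an interaction of 1.40 (SE 0.585, unadjusted p = 0.0307, edgeR adjusted p = 0.597). As for genes A, B and C, its mean with phenelzine alone lay between those of combination and vehicle. Phenelzine against vehicle was 1.01 on the log2 scale (edgeR adjusted p = 0.795). The single-drug effects on gene G sum to 1.06 against an observed 2.46. Gene H had 5.99, 321, 6.34 and 4.63 CPM with the combination, against 0.470 to 3.07 in nab-paclitaxel mice, 0 to 1.17 in phenelzine mice and 0 to 4.13 in vehicle mice. Its interaction was 7.38 (SE 2.09, unadjusted p = 0.00317, edgeR adjusted p = 0.597) and 3.44 without combination 2, the library at 321.

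Against the mean of the 3 other groups, ENSMUSG00000020522 and gene A kept their calls with any 1 library left out (edgeR adjusted p up to 0.0181 and 0.0252). Gene C lost it without combination 1 (0.0622), gene B without combination 1 or 2 (up to 0.0965) and gene G without combination 1, 2 or 3 (up to 0.0965). Gene F lost it in 11 of the 16 fits (up to 0.215) and gene H in 12 (up to 0.649). Against nab-paclitaxel, gene A lost its call without nab-paclitaxel 1 or 4 (up to 0.0617) and gene E in 9 fits (up to 0.153). The calls of genes A, B and C against vehicle were each lost in 6 fits (up to 0.0980), that of gene D in 13 (up to 0.219), and that of ENSMUSG00000020522 in 5. With the mouse share as a covariate only the calls of ENSMUSG00000020522 against nab-paclitaxel (0.00572) and against the mean of the 3 others (0.0198) were kept, and without combination 1 and 3 and nab-paclitaxel 1 and 4 none was. Some lost calls kept folds near those of all libraries: with the covariate the log2 fold was 2.27 for gene A and -1.51 for gene E against nab-paclitaxel and -1.93 for gene D against vehicle, and without the 4 libraries ENSMUSG00000020522 was at -1.26 against nab-paclitaxel. Others moved more: with the covariate gene F was at 2.07 against the mean of the 3 others, where all libraries gave 3.52.

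**Figure D4:**
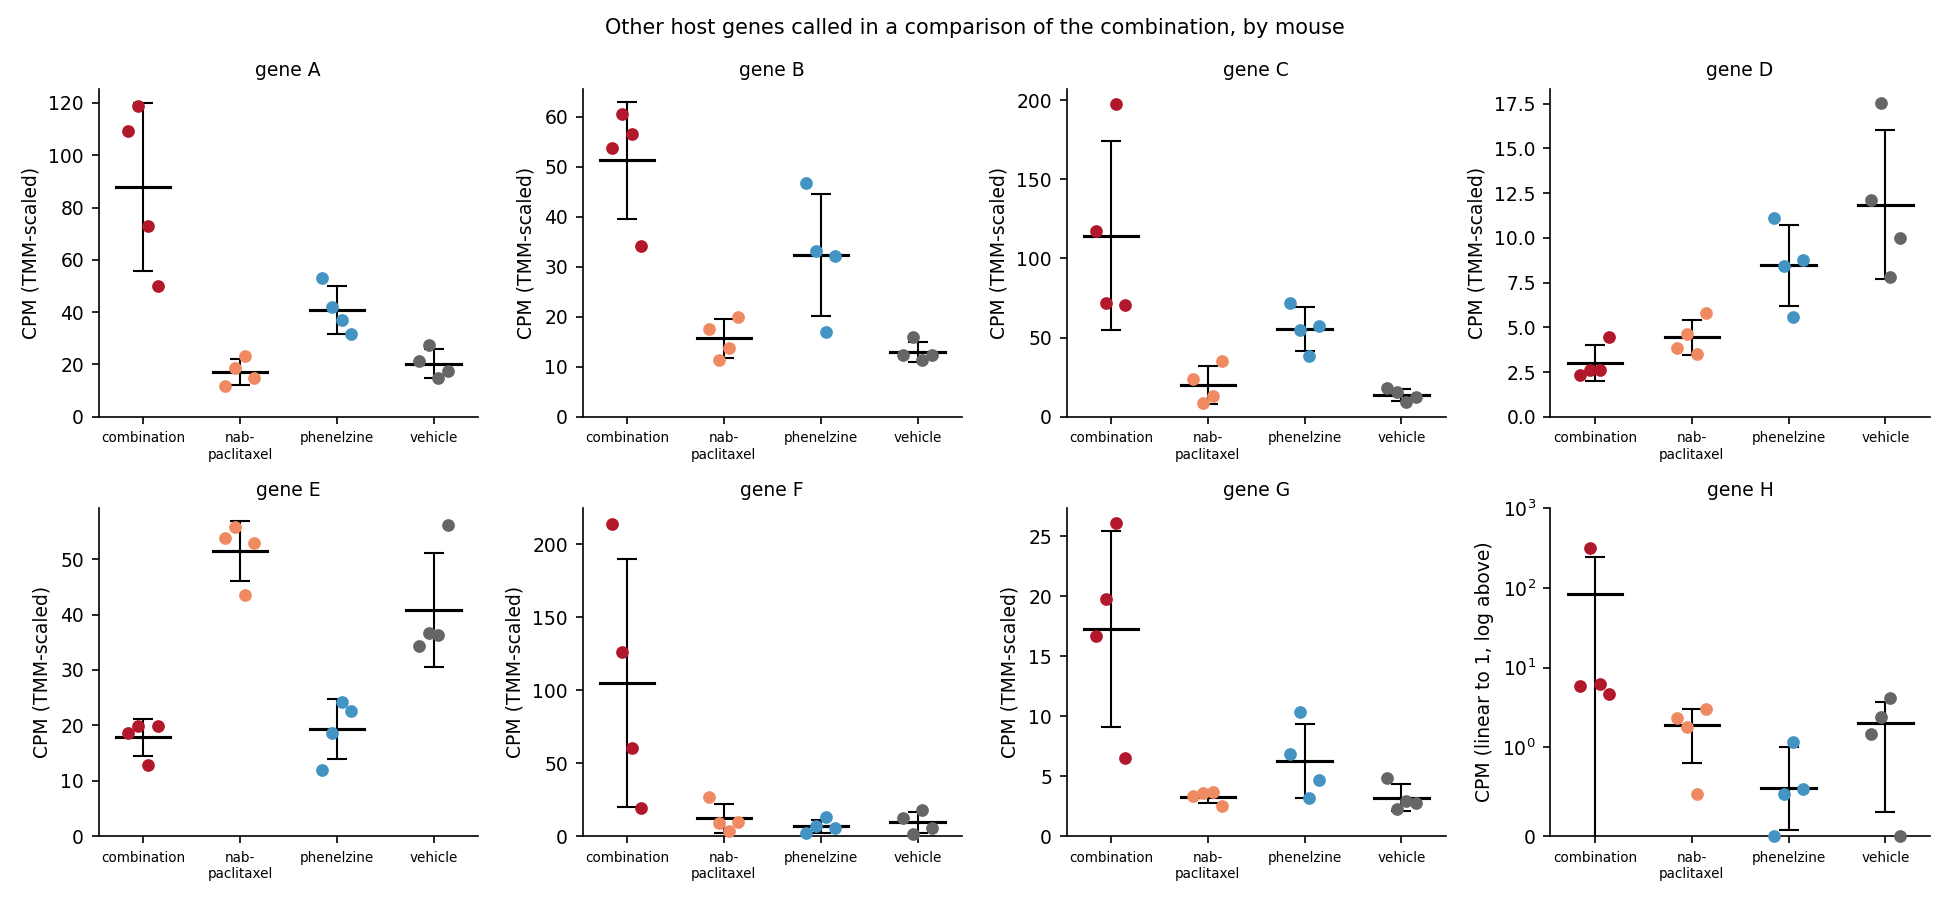
CPM (TMM-scaled) of genes A to H by group; each point is 1 mouse, the long bar is the mean and the error bar the SD (n = 4), cut at 0, with linear axes except gene H, whose axis is linear to 1 and logarithmic above. The means of genes A, B, C and G are highest with the combination and next highest with phenelzine. Gene D has its lowest mean with the combination and its highest with vehicle. Gene E is low in both groups with phenelzine.

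**Figure D5:**
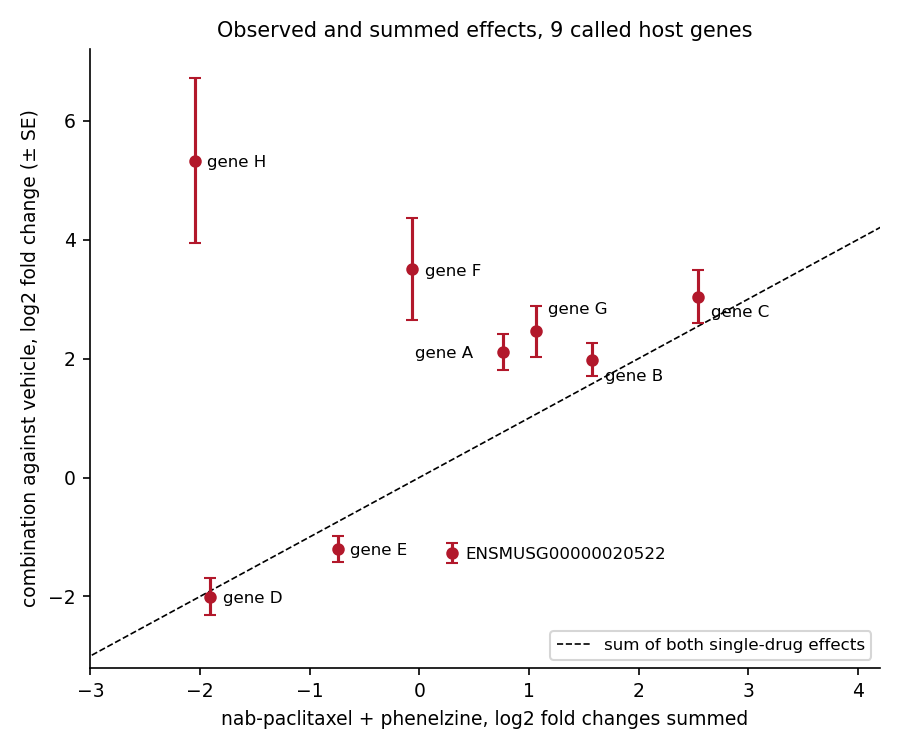
Log2 fold change of the combination against vehicle (vertical, ± SE) and the sum of the log2 fold changes of nab-paclitaxel and phenelzine against vehicle (horizontal), for the 9 called host genes. Genes B, C, D and E lie within 0.50 of the dashed line of equal values. ENSMUSG00000020522 (-1.27 observed, 0.30 summed) and genes A (2.11 observed, 0.76 summed), F, G (2.46 observed, 1.06 summed) and H lie away from it.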

How the data were processed

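RNA of 16 xenograft tumours, 4 mice in each of 4 groups, was analysed from the matrix of mouse gene counts as deposited by the authors; the human matrix served for the mouse share of counts and for 1 count of human interactions. The submitters' processing notes list hg38, mm10, HISAT2 2.04, StringTie, Trimmomatic 0.36, Picard and edgeR, with no role or order. The sources used here say nothing of strand, duplicates, annotation or how reads were split by species. Count values of 1, 2, 3 and 4 occur 9478, 15617, 17175 and 6776 times in the mouse matrix; the reason was not tested.

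In edgeR 4.0.16 (R 4.3.3), genes passed the default filter (minimum count 10), TMM factors were used, and 1 mean per group was fitted over all 16 libraries (12 residual degrees of freedom), so that the groups share 1 estimate of the spread. Standard errors are the log2 value divided by the square root of F, and 95% intervals use 12 degrees of freedom. The method was also run on simulated counts with changes placed in the combination only. These held no single-drug effects and no effect of mouse share, so the run cannot speak for either. Its outcome is not used as support here. Alternatives used DESeq2 1.42.0, limma 3.58.1, other factors and filters, a replicate block, the mouse share as a covariate, and fits without 1 library or without combination 1 and 3 and nab-paclitaxel 1 and 4. P-values measure the spread between libraries, 1 per mouse.

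The tests, 25 gene lists and rules were chosen with earlier results of these data known. The lists, and the condition of a symbol in the rule for named genes, could not be applied, because 0 mouse IDs matched a symbol. The rule took interactions by unadjusted p among genes averaging at least 5 CPM in a group, combination libraries outside the 12 others by at least 2-fold, and every gene called with the combination. Only the first 2 IDs in each direction are printed, which was decided once values had been looked at. Reads shared with paralogs or overlapping genes could not be assessed for them. No library repeated another of its group (lowest chi-square per degree of freedom 14.0 over genes).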

Additional observations from a re-analysis of the deposited data

Results flagged for a closer look

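In groups of 4, 1 mouse stood far from its 3 group mates in 6 of 60 groups of values looked at (mouse share and the genes described); chance flags about 1 in 20. ENSMUSG00000001441 had 57.3 CPM in phenelzine 2, against 44.9 to 47.0 in the other phenelzine mice. ENSMUSG00000029544 had 14.8 CPM in phenelzine 1, against 6.26 to 7.0 in the others. Gene H had 320.7 CPM in combination 2, against 4.63 to 6.34 in the others. The third gene whose combination libraries lay above the 12 others by at least 2-fold had 5.36 CPM in vehicle 3, against 1.91 to 2.30 in the other vehicle mice. Gene E had 56.3 CPM in vehicle 4, against 34.2 to 36.7 in the others, and gene D had 4.48 CPM in combination 4, against 2.34 to 2.61 in the others.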

How the results depend on the processing

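The direction of the interaction was the same for all 4 printed IDs under every alternative run. The count of interaction calls, 0 in the main test, was 1 with upper-quartile factors, 1 in voom, 18 in DESeq2 and 0 to 4 with 1 library left out (4 without phenelzine 2, 1 without phenelzine 3 or combination 4). DESeq2 called 46 genes against nab-paclitaxel, 563 against phenelzine, 325 against vehicle and 270 against the mean of the 3 other groups, and 221 for nab-paclitaxel and 11 for phenelzine against vehicle; voom called 10, 391, 3, 27, 1 and 0. For nab-paclitaxel against vehicle, 2 were called with DESeq2 size factors, with upper-quartile factors or with no low-count filter, which called 2 against phenelzine. With the mouse share as a covariate the counts were 1 against nab-paclitaxel, 0 against phenelzine, 0 against vehicle and 1 against the mean of the 3 others, and 1 for nab-paclitaxel against vehicle. Without combination 1 and 3 and nab-paclitaxel 1 and 4 the 4 counts with the combination were 0, 0, 0 and 0. With 1 library left out they ran from 1 to 5 against nab-paclitaxel, 1 to 389 against phenelzine, 0 to 58 against vehicle and 3 to 327 against the mean of the 3 others, and from 0 to 4 for nab-paclitaxel and 0 to 3 for phenelzine against vehicle. The interaction of the mouse share was 12.5 to 30.1 points with 1 library left out (exact permutation p 0.0539 to 0.405), and 1.06 on the logit scale (0.155). The causes were not tested. Whether the replicate numbers in the labels pair the mice was not tested against a chance level. Deviations of same-numbered libraries correlated at -0.17 to 0.31 in 24 pairs, 11 of them over 0.1. Of 16 libraries, 6 correlated best with their own number. Genes at unadjusted p under 0.05 were 642 positive and 745 negative with the block (9.20% of genes tested). They were 948 and 1201 in voom (14.3%), against 791 and 437 in the main test (8.15%). The fit with the replicate block called 0 interactions (lowest adjusted p 0.255) and 2 genes against vehicle. Phenelzine libraries, and all vehicle libraries except vehicle 2, were the shallowest by mouse counts. The median SE of the interaction was 0.71 for genes averaging 1 to 10 CPM and 0.30 for those at 10 to 100 CPM. How far depth set the precision was not tested.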
